A study of Mus musculus with 8 samples.

Results

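Imprinted genes are expressed from the copy inherited from 1 parent, and 33 of them were followed here in liver RNA of mouse fetuses whose mothers had been underfed. The members are mouse genes known as imprinted and were chosen by name, and every array probe carrying a member's gene name was read. The array held 63 probes for 32 of the 33 genes, out of 41174 probes and 28104 gene names in all, and it held none for Rtl1. Of the members, 17 are known as paternally expressed and 15 as maternally expressed, and Gnas gives transcripts of both kinds. These classes are those known for mouse, whatever the tissue. Whether a given member is imprinted in liver was not examined. The arrays measured total RNA of a gene and did not separate the parental copies, so a changed level does not show whether imprinting itself changed.

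All animals were C57BL/6J mice. Food restriction (FR) mothers received 50% of the chow eaten by controls from gestation day 10 to 17, and control mothers fed freely. Livers were taken on day 18 from 6 mothers per diet and from 2 male fetuses per mother, and RNA was pooled within a diet. The groups were FR fetuses and control fetuses, in 1 pool pair of 6 animals each and 2 pool pairs of 3 animals each (called group 1 and group 2), and FR mothers and control mothers, in 1 pool pair of 6 animals each. An FR pool and a control pool shared each 2-colour Agilent array, and each pair was hybridized again with the dyes exchanged, giving 8 arrays. The pools hold 12 fetuses per diet, as many as were collected, but the source litters of a pool are not stated. Litters or RNA may therefore recur in several pools, which would make the p-values too small.

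Imprinted genes lie in clusters controlled by DNA regions that are methylated on 1 parental copy only. Many of them act on growth before birth. Paternally expressed genes such as Igf2, a fetal growth factor made in large amounts by fetal liver, tend to promote growth, and maternally expressed genes such as Cdkn1c, Grb10, Igf2r and Phlda2 tend to restrain it. Many members are silenced in liver after birth, as part of the end of fetal growth.

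The promoters of 3 members are shown, those of Mest and Grb10, whose RNA fell, and of Phlda2, whose RNA rose, to mark their CpG dinucleotides, the bases that can carry DNA methylation. They are the 250 bases before the start of each gene in RefSeq (GRCm38.p6), on the gene's own strand from 5′ to 3′, with CG in capitals. For Mest the stretch was chr6:30737800-30738049 (plus strand), for Grb10 chr11:12037421-12037670 (minus strand) and for Phlda2 chr7:143502525-143502774 (minus strand), and where a gene had several windows the one with the most CG was taken.
Mest: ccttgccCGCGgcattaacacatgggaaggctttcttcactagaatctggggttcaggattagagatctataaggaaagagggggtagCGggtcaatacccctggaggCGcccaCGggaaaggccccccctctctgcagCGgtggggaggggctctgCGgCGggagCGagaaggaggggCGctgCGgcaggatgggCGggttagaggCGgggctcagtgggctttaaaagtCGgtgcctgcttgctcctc
Grb10: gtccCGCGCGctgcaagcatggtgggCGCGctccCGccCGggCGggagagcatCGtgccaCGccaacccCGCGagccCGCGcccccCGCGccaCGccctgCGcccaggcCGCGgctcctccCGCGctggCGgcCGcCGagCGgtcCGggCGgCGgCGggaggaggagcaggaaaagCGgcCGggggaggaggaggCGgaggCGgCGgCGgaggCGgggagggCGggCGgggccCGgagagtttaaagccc
Phlda2: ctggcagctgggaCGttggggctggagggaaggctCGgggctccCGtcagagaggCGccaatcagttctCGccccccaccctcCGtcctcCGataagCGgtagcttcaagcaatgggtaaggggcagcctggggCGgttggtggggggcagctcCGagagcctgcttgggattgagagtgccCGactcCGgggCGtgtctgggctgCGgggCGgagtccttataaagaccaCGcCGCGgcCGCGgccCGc
The Grb10 stretch held 40 CG, the Phlda2 stretch 21 and the Mest stretch 14, more than 98.7%, 83.7% and 70.6% of all windows. Methylation was not measured, and whether these stretches lie in the control regions of their clusters was not examined. Over the 25 members with a RefSeq window, the richest window of a gene had a median of 16 CG, against 6 over all 27025 genes with one, and members had more windows per gene (41 windows for 25 genes, against 32851 for all). The letters GGGGCCCC, a motif bound by the member Plagl1 and its own reverse complement, were found in the windows of 3 members (12%), against 1.03% of all genes. Those were Peg3 and Ppp1r9a, whose RNA fell, and Rasgrf1 with a fetal mean of -0.07 (adjusted p = 0.303). The motif holds only G and C, and the windows compared were not matched for base content. The matching windows held 35 CG for Ppp1r9a, 21 for Rasgrf1 and 8 for Peg3. A match is a description of these letters and not a shown binding site, and a link to the RNA changes was not tested.

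In fetal liver, FR changed 8 of the 31 members that could be tested, with 7 lower and 1 higher (25.8%). Over all 21097 genes tested, the share was 25.6% (11.4% higher and 14.2% lower), so the members were called about as often as any gene. Of all calls 44.4% were higher, against 24% without loess normalization. Each value is the log2 of FR over control, given as mean ± SD over the 3 pool pairs (n = 3), and the threshold was a limma p-value of 0.05 after Benjamini-Hochberg adjustment over all genes tested. The members' median was -0.06 and that of all genes 0.01, and the median size of a change was 0.10 for members and 0.12 for all genes. The same sign in all 3 pool pairs was seen for 14 of the 31 members (45.2%), against 62.6% of all genes. Leaving out the pool pair of 6, or scaling the log ratios between arrays, left no gene past the threshold in limma, and the members are given with that limit (adjusted p = 0.053 to 0.146 for the 8 genes without that pair). In the fit without it, 2865 genes were higher and 3312 lower at an unadjusted p under 0.05. Nap1l5 was not tested because too few fetal arrays showed it well above background.

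**Figure D1:**
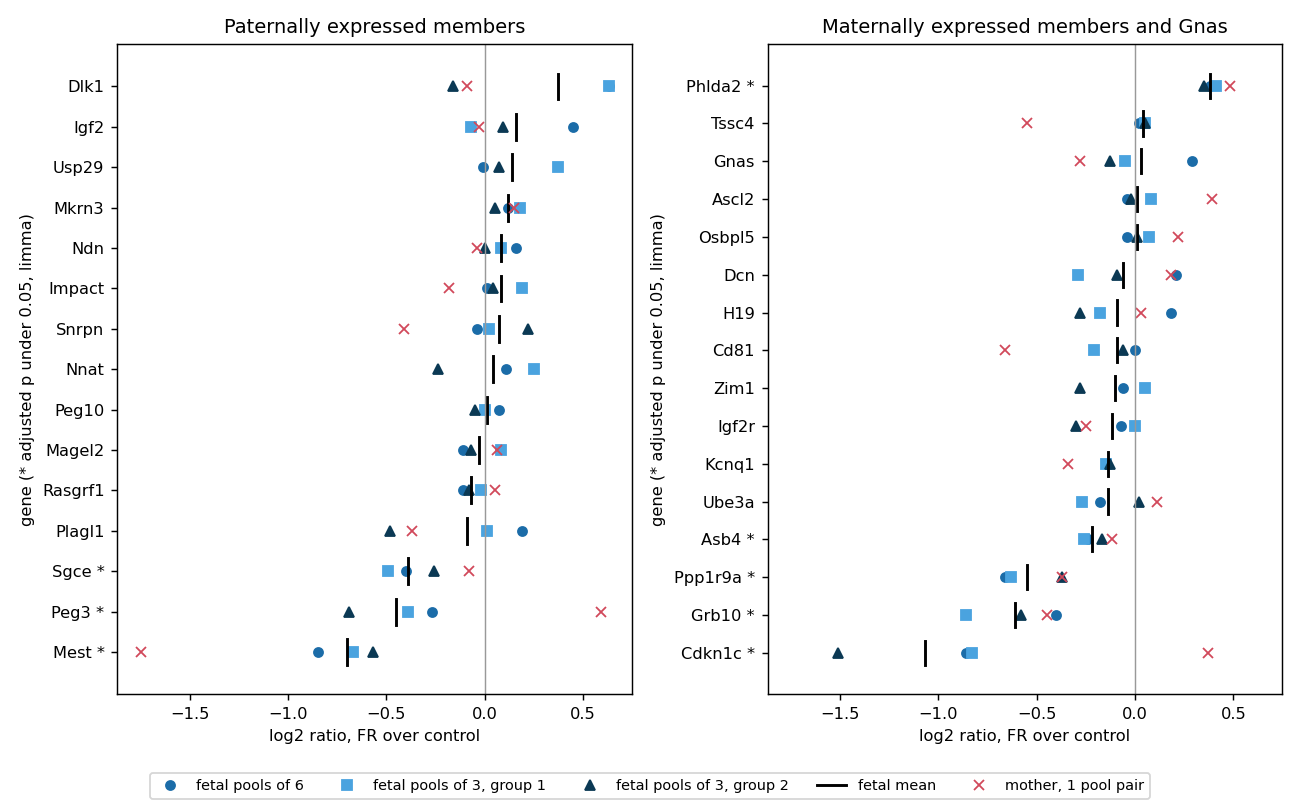
Log2 ratio of FR over control (horizontal axis) for each tested member, with paternally expressed genes on the left and maternally expressed genes and Gnas on the right. Blue symbols are the 3 fetal pool pairs, the black bar is their mean, the red cross is the maternal pool pair where the gene was measured there, and a star marks an adjusted p under 0.05; the 7 starred genes with means below 0 and Phlda2 at 0.38 kept their sign in every fetal pool pair.

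The growth restrainers among the maternally expressed members did not move together. Cdkn1c encodes p57, an inhibitor of cyclin-dependent kinases that takes cells out of the cycle. Its log2 level was 13.65 in the FR pool of 6 and 13.98 and 13.59 in the FR pools of 3 (groups 1 and 2), against 14.50, 14.81 and 15.10 in the matching control pools. The FR and control pools did not overlap, and group 2 had the widest gap. Cdkn1c fell by 1.07 ± 0.38 on the log2 scale (adjusted p = 0.0111), to 0.478 of control, and 0.901% of all genes tested had a change of this size or more. In the mothers it had ratios of 0.57 and 0.17 on the exchanged arrays, at a level of 9.29 in FR and 8.92 in control.

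Grb10, an adaptor that binds the insulin and IGF1 receptors and damps their signal, had log2 levels of 14.99, 14.48 and 14.66 in the FR pools (pool of 6, then groups 1 and 2), against 15.39, 15.35 and 15.24 in the control pools. No FR pool reached the lowest control pool. The fall was 0.40 in the pool pair of 6 and 0.86 and 0.58 in the pairs of 3 (mean -0.61 ± 0.24, adjusted p = 0.0141). All 3 Grb10 probes were lower in every fetal pool pair, with means of -0.42 and -0.71 on the dimmer probes. The brightest probe was also lower in the mothers, at -0.52 and -0.38 on the 2 arrays, while the dimmer ones, of which 1 was not well above background in the FR mothers, had maternal means of -0.02 and 0.08.

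Phlda2, whose protein restrains growth of the placenta, was the 1 member that rose. Its levels were 10.78, 10.32 and 10.43 in the FR pools, against 10.40, 9.91 and 10.08 in the control pools. The groups overlapped because the pools differed in level, yet within each pair FR was higher by nearly the same amount. The ratios of 0.38, 0.41 and 0.35 gave a mean of 0.38 ± 0.03 (adjusted p = 0.00841), and the second probe gave 0.37 ± 0.06. In the mothers the ratios were 0.46 and 0.49. Without loess normalization the fetal mean was 0.24 (adjusted p = 0.20).

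Igf2r, the receptor that carries Igf2 to the lysosome for breakdown, had levels of 12.50, 12.71 and 12.32 in the FR pools and 12.56, 12.71 and 12.62 in the control pools. The groups overlapped, and the mean ratio was -0.12 ± 0.15 (adjusted p = 0.263).

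Igf2 itself had levels of 16.74, 16.46 and 16.47 in the FR pools, against 16.29, 16.53 and 16.38 in the control pools. FR was higher in the pool pair of 6, and the pairs of 3 lay near 0 on either side. The ratios of 0.45, -0.07 and 0.09 gave a mean of 0.16 ± 0.26 (adjusted p = 0.326), and the second probe gave 0.21 ± 0.20. H19, the noncoding RNA that shares enhancers with Igf2, had levels of 17.15, 16.62 and 16.47 in the FR pools and 16.97, 16.80 and 16.75 in the control pools. Its ratios of 0.18, -0.18 and -0.28 (mean -0.09 ± 0.24, adjusted p = 0.519) were likewise split between the pool sizes. The pool sizes also differed in the software version of their scanner files, called slide 1 and slide 2 here. The second H19 probe gave -0.11 ± 0.18.

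Dlk1, a transmembrane protein of the Notch ligand type that is typical of hepatoblasts, had levels of 15.97, 15.84 and 15.29 in the FR pools, against 15.34, 15.21 and 15.45 in the control pools. FR was higher in 2 pool pairs and lower in group 2. The ratios of 0.63, 0.63 and -0.16 gave a mean of 0.37 ± 0.46 (adjusted p = 0.180), and the second probe gave 0.33 ± 0.41. The value depended on group 2, since without it Dlk1 had 0.63 (adjusted p = 0.00465 in limma), from the pairs that were alike. Without the pool pair of 6, or without group 1, Dlk1 had 0.23 (adjusted p = 0.515 and 0.516).

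Plagl1, a zinc finger transcription factor that regulates other imprinted genes, had levels of 14.22, 14.24 and 13.86 in the FR pools and 14.03, 14.23 and 14.33 in the control pools. It too was lower in group 2 alone, with ratios of 0.19, 0.01 and -0.48 (mean -0.09 ± 0.35, adjusted p = 0.651). Without group 2 its mean was 0.10.

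Mest, a hydrolase-like protein of the endoplasmic reticulum that is known for growth of mesoderm and fat cells, had the lowest adjusted p of the members. Its levels were 13.50, 13.40 and 13.48 in the FR pools, against 14.35, 14.08 and 14.05 in the control pools. The FR pools were nearly level with each other and all below the control pools. Mest fell by 0.85 in the pool pair of 6 and by 0.67 and 0.57 in the pairs of 3 (mean -0.70 ± 0.14, adjusted p = 0.00656), to 0.616 of control. In the mothers, where 1 pool pair allows no test, its ratios were -2.11 and -1.39 on the 2 arrays, at much lower levels (7.78 in FR and 9.53 in control).

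Peg3, a zinc finger protein linked to growth and maternal behaviour, had levels of 10.18, 10.78 and 10.57 in the FR pools, against 10.45, 11.17 and 11.27 in the control pools. The groups overlapped because the pool of 6 was dimmer for both diets, and within each pair FR was lower. The ratios were -0.27, -0.39 and -0.69 (mean -0.45 ± 0.22, adjusted p = 0.0247). The second probe gave -0.66 ± 0.42 and the third, much dimmer one -0.02 ± 0.13. With the slide as a block the adjusted p was 0.0626.

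The imprinted cluster of mouse chromosome 6 around Peg10 and Sgce held 3 of the 7 genes that fell. It has 4 members, all tested, and over all genes tested 14.2% were lower. The cluster was not tested against that share, and the calls of Ppp1r9a and Asb4 were lost with the median over probes. Sgce encodes a sarcoglycan of the cell membrane, is paternally expressed and had levels of 12.61, 12.24 and 12.51 in the FR pools, against 13.01, 12.74 and 12.77 in the control pools, without overlap. Its mean was -0.39 ± 0.12 (adjusted p = 0.0141), its second probe gave -0.32 ± 0.14, and the mothers had 0.06 and -0.23. Without spots marked non-uniform, and with the slide as a block, Sgce missed the threshold (adjusted p = 0.0673 and 0.0545).

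Ppp1r9a, maternally expressed and coding for neurabin, which brings protein phosphatase 1 to actin, had levels of 9.62, 9.36 and 9.62 in the FR pools and 10.27, 9.98 and 9.99 in the control pools, again without overlap. Its brightest probe gave -0.55 ± 0.16 (adjusted p = 0.00997). The other 5 probes, all much dimmer, had means from -0.14 to 0.23, with the highest at 0.16, 0.27 and 0.26 in the 3 pairs, and the median over probes was -0.08 (adjusted p = 0.269), so this call belongs to 1 probe. The maternal ratios of the brightest probe were -0.33 and -0.40.

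Asb4, a maternally expressed adaptor of ubiquitin ligases, had levels of 9.15, 9.02 and 9.11 in the FR pools, against 9.38, 9.28 and 9.28 in the control pools. The pools did not overlap although the change was small, at -0.22 ± 0.05 (adjusted p = 0.0277). A dimmer probe gave -0.03 ± 0.06, and the median over probes -0.13 missed the threshold (adjusted p = 0.0766). Peg10, the retrotransposon-derived gene next to Sgce, had a fetal mean of 0.01 ± 0.06 on a dim probe.

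**Figure D2:**
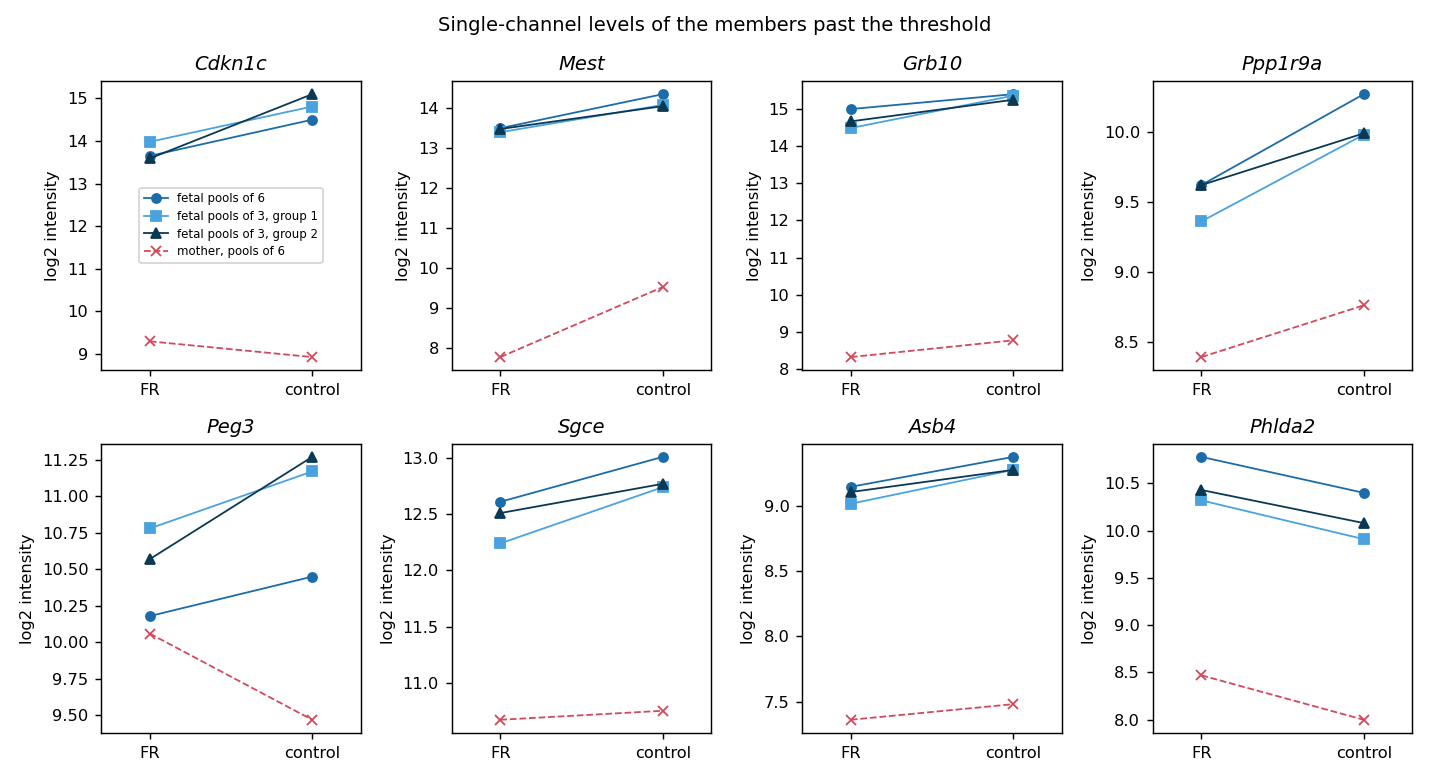
Single-channel log2 intensity (vertical axis) of the 8 members past the threshold, in the FR pool (left) and the control pool (right) of each pair. Blue lines join the 2 pools of a fetal pair and the dashed red line those of the mothers; the fetal lines rise towards control in 7 panels and fall in that of Phlda2, while the maternal line of Peg3 and of Cdkn1c runs against the fetal ones.

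By position, the probe of Cdkn1c lay on chromosome 7 at 150644753 to 150644812 and that of Phlda2 at 150687474 to 150687533, in coordinates of the slide 1 files (mm9), and their place within the transcripts was not analysed here. The 2 genes are neighbours in the Kcnq1 cluster and moved in opposite directions. Of the 7 members of that cluster, whose probes span 720 kb, 1 rose, 1 fell and 5 did not pass. Over all genes tested, 11.4% were higher and 14.2% lower, and the counts of these small clusters were not tested against those shares. Kcnq1, a potassium channel gene, had -0.14 ± 0.01 with nearly the same ratio in every pair (adjusted p = 0.0677), and Ascl2, Osbpl5, Tssc4 and Cd81 lay between -0.09 and 0.04. The 4 chromosome 6 genes from Sgce (4624457 to 4624516) to Asb4 (5382886 to 5382945) span 758 kb and had a median of -0.30. The other called probes lay on chromosome 6 at 30698279 to 30698338 (Mest) and 5114866 to 5114925 (Ppp1r9a), on chromosome 7 at 6660440 to 6660499 (Peg3) and on chromosome 11 at 11830965 to 11831024 (Grb10). Of the 3 members of the Peg3 cluster 1 fell, and Usp29 and Zim1, at 0.14 and -0.10, were read from dim probes. None of the 5 members of the Snrpn and Ube3a cluster (Snrpn, Ndn, Magel2, Mkrn3 and Ube3a) passed, with means from -0.14 to 0.12.

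**Figure D3:**
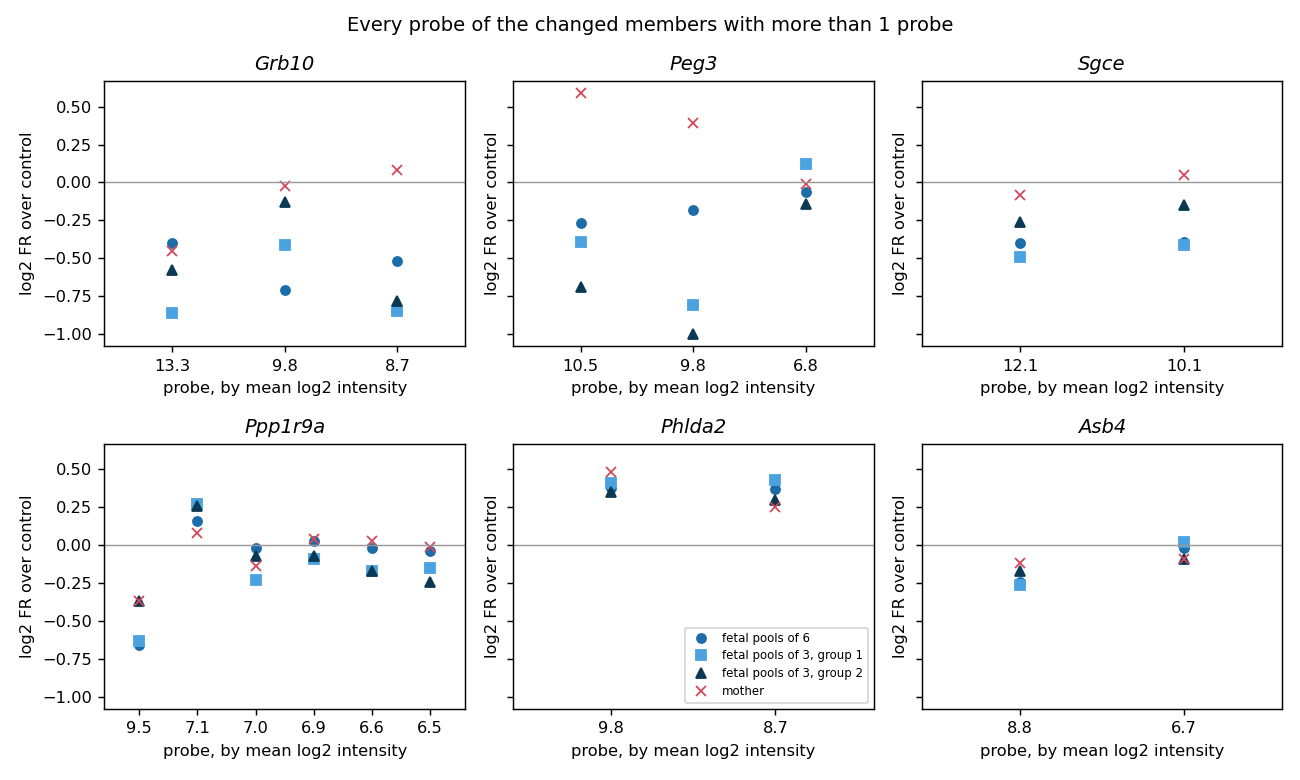
Log2 ratio of FR over control (vertical axis) for every probe of the called members with more than 1 probe, ordered by mean log2 intensity (horizontal axis). Blue symbols are fetal pool pairs and red crosses the mothers; the probes of Grb10, Sgce and Phlda2 share a sign in every fetal pair, while the dimmer probes of Ppp1r9a range from -0.14 to 0.23 and that of Asb4 is at -0.03.

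Both parental classes held genes that fell. Of 15 tested paternally expressed members, 0 rose and 3 fell (20%, median 0.04), and of 15 maternally expressed members 1 rose and 4 fell (33.3%, median -0.10), against 25.6% of all genes with a median of 0.01. The difference between the classes was not tested, and a gene's class need not hold in fetal liver. Gnas, the gene of the stimulatory G protein subunit, had 0.03 ± 0.22 on its brightest probe, and its other 7 probes had means from -0.16 to 0.06. Of the 23 members that did not pass, 21 lay within 0.15 of 0 in either direction, and the exceptions were Igf2 and Dlk1. Nnat, a proteolipid gene, had 0.04, and Impact, an inhibitor of the Gcn2 kinase that senses amino acid shortage, had 0.08.

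In bulk liver, fewer cells of a type and less RNA per cell cannot be told apart, and marker genes of several cell types moved in the same pools. The share called was 62.5% of the hepatocyte and hepatoblast markers and 57.1% of the macrophage markers, and 0% to 33.3% in the other lists. Over all genes it was 25.6% (11.4% higher and 14.2% lower). Of 8 hepatocyte and hepatoblast markers, 5 were lower and 0 higher. Their summed intensity was 559000 to 609000 in the FR pools, against 664000 to 789000 in the control pools. Of 12 mesenchyme and stellate cell markers 3 were lower. Their sums were 55700, 45200 and 39000 in FR (pool of 6, then groups 1 and 2), against 50900, 47900 and 47800 in control. Of 7 endothelial markers 2 were lower (12700 to 13400 in FR and 14100 to 14700 in control), and of 7 mesothelial markers 2 were higher (2820 to 3010 and 2720 to 3050). Of 6 erythroid markers 1 was lower and 0 higher. Their sums, in the same order, were 316000, 368000 and 285000 in FR, against 209000, 232000 and 291000 in control. Within pairs the erythroid sum was thus higher in FR except in group 2. Of 7 macrophage markers 3 were lower and 1 higher, while their sums were 36800, 39900 and 39100 in FR, against 33000, 36700 and 33900 in control. For tissues that could be carried over in dissection, 0 of 6 muscle markers and 0 of 3 neuron markers (sums of 698 to 881 in FR and 681 to 879 in control) passed. The muscle sums were 2590, 1900 and 1730 in FR, against 1940, 2000 and 1950 in control, so FR was higher in the pool pair of 6 alone. In that pair Acta1, Myh3 and Tnnt3 had ratios of 1.05, 0.83 and 0.78, and Actc1, Myog and Des -0.05, 0.12 and 0.08. A test over 3 pairs says little about carry-over into 1 pool. Of 6 pancreas and gut markers 1 rose and 1 fell. Their sums were 4490, 4000 and 6850 in FR, against 3540, 3820 and 4720 in control. Of 3 trophoblast markers 1 rose (1230 to 1650 in FR and 1150 to 1580 in control). Each of these markers was above background on at least 1 fetal control array, while 3 of the 6 listed trophoblast genes and 2 of the 5 listed neuron genes were not measured. Their part in the members' values was not tested.

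The second question was how the fetal response compared with that of the mothers. In maternal liver, where 1 pool pair allows no test, a gene was called when it differed by at least 1.5-fold in the same direction on both arrays. Of the 28 members measured there, 0 were higher and 1, Mest, was lower, against 6.88% of 19507 genes (3% higher and 3.88% lower). Each of the other 27 members lay within 1.5-fold of control on at least 1 of the 2 arrays.

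The difference between the fetal and the maternal response could be tested for 27 members with limma, on the assumption that the lone maternal pair varies like the fetal pairs. It passed for 3 of them, with 2 higher and 1 lower, against 4.18% of 18969 genes (2.12% higher and 2.05% lower). Mest had a less negative ratio in the fetuses than in the mothers, with a difference of 1.05 ± 0.13 (SE, adjusted p = 0.0274). Peg3 differed by -1.05 ± 0.18 (SE), since it fell in the fetuses and had ratios of 0.51 and 0.68 in the mothers, and its adjusted p printed as 0.05 lay just under the threshold. Tssc4, of the Kcnq1 cluster, differed by 0.58 ± 0.09 (SE, adjusted p = 0.0384), with fetal ratios of 0.02, 0.05 and 0.05 and maternal ratios of -0.59 and -0.50. Cdkn1c had the widest gap, at -1.44 ± 0.29 (SE), and missed the threshold (adjusted p = 0.0671), as did Cd81 of the same cluster at 0.57 ± 0.12 (SE, adjusted p = 0.0681). With the slide as a block, 0 genes of the whole array passed (1138 higher and 1290 lower at an unadjusted p under 0.05), and Mest, Peg3 and Tssc4 had 0.90, -0.87 and 0.57 (adjusted p = 0.185, 0.268 and 0.268).

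**Figure D4:**
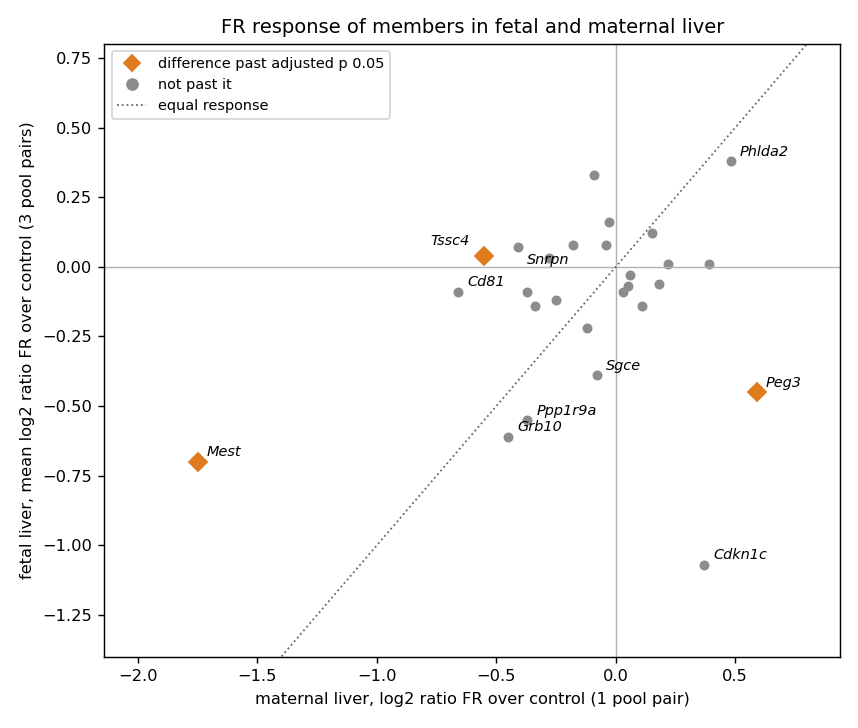
Fetal mean log2 ratio over 3 pool pairs (vertical axis) against the maternal log2 ratio of 1 pool pair (horizontal axis) for the 27 members measured in both, with a dotted line where the responses are equal. Orange diamonds are the 3 genes whose difference passed an adjusted p of 0.05, and Cdkn1c at -1.07 and 0.37 lies farthest from the line below it without passing.

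The third comparison set the levels of control fetuses against those of control mothers. Of 32 members, 17 were higher and 5 lower in the fetuses (68.8%), against 36% of 20854 genes (18.5% higher and 17.4% lower), by limma on single-channel levels with 1 maternal pool. A gene could enter through detection in either group. Dlk1, Nnat, Peg10, Zim1 and Usp29 entered through the fetal arrays alone and Nap1l5 through the maternal arrays alone. That filter favoured the direction these genes show, and all but Usp29 are among the calls. Igf2, Dlk1 and H19 had the widest gaps. Igf2 averaged 16.40 ± 0.12 in the control fetal pools (SD, n = 3) and 7.33 in the control maternal pool, a 538-fold difference (adjusted p = 4.31e-05), and H19 averaged 16.84 ± 0.12 and 8.66, 291-fold. The brighter Dlk1 probe averaged 15.33 ± 0.12 in the fetuses, and its maternal signal of 6.55 was not well above background, so that probe was at least 439-fold higher, with the bound taken from the higher of the dimmest detected signal and the probe's own. The second Dlk1 probe was above background on both maternal arrays, at 13.72 ± 0.18 in the fetuses and 7.01 in the mothers, a measured 105-fold.

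The next genes in that order were Grb10 at 93.1-fold, Cdkn1c at 59.1-fold, Plagl1 at 37.6-fold and Mest at 24.7-fold, and on their brightest probes these 7 were the members over 4 log2 units apart. The sizes depended on the probe, since the other Grb10 probes gave 17.9-fold and 6.97-fold and the second Plagl1 probe 6.27-fold. With the median over probes Plagl1 differed by 3.94 and Grb10 by 4.16 log2 units. Phlda2 and Sgce were 4.38-fold and 4.24-fold higher, Asb4 3.58-fold, Peg3 2.83-fold (adjusted p = 0.0272), Ppp1r9a 2.50-fold and Igf2r 1.99-fold. With the median over probes Peg3 and Ppp1r9a missed the threshold (0.97 and 0.22 log2 units, adjusted p = 0.108 and 0.368), and Peg3 also did without group 1 (1.39, adjusted p = 0.0642). Nnat, Peg10 and Zim1 were at least 3.29-fold, 1.45-fold and 1.47-fold higher, from dim maternal signals, and Osbpl5 was 1.62-fold higher. Peg10, Zim1 and Osbpl5 missed the threshold without group 1 (adjusted p = 0.134, 0.152 and 0.0857) and without group 2 (adjusted p = 0.0835, 0.106 and 0.064). The FR and the level comparison share the fetal control pools.

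Of the 5 members with lower fetal levels, Snrpn had the widest gap. Snrpn, a splicing protein gene, averaged 7.89 ± 0.28 in the fetal pools and 9.72 in the mothers (0.281 of the maternal level), and the tetraspanin gene Cd81 14.60 ± 0.10 and 15.63 (0.487). Nap1l5, Kcnq1 and the proteoglycan gene Dcn were at 0.619, 0.632 and 0.661 of the maternal level, with adjusted p-values of 0.0171, 0.0227 and 0.0316. All 3 missed the threshold without group 1 (adjusted p = 0.0869, 0.105 and 0.102) and without group 2 (adjusted p = 0.0565, 0.0556 and 0.101). The fetal control signal of Nap1l5 averaged 6.40 and was well above background on only 3 of the 6 fetal arrays. Its 0.619 therefore rests on a fetal signal near background. Both parental classes had more higher than lower calls in the fetus. There were 8 higher and 2 lower of 16 paternally expressed members, and 9 higher and 3 lower of 15 maternally expressed members. Over all genes 18.5% were higher and 17.4% lower. The higher counts include Dlk1, Nnat, Peg10 and Zim1, and the lower ones Nap1l5, which entered through detection in 1 group alone.

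**Figure D5:**
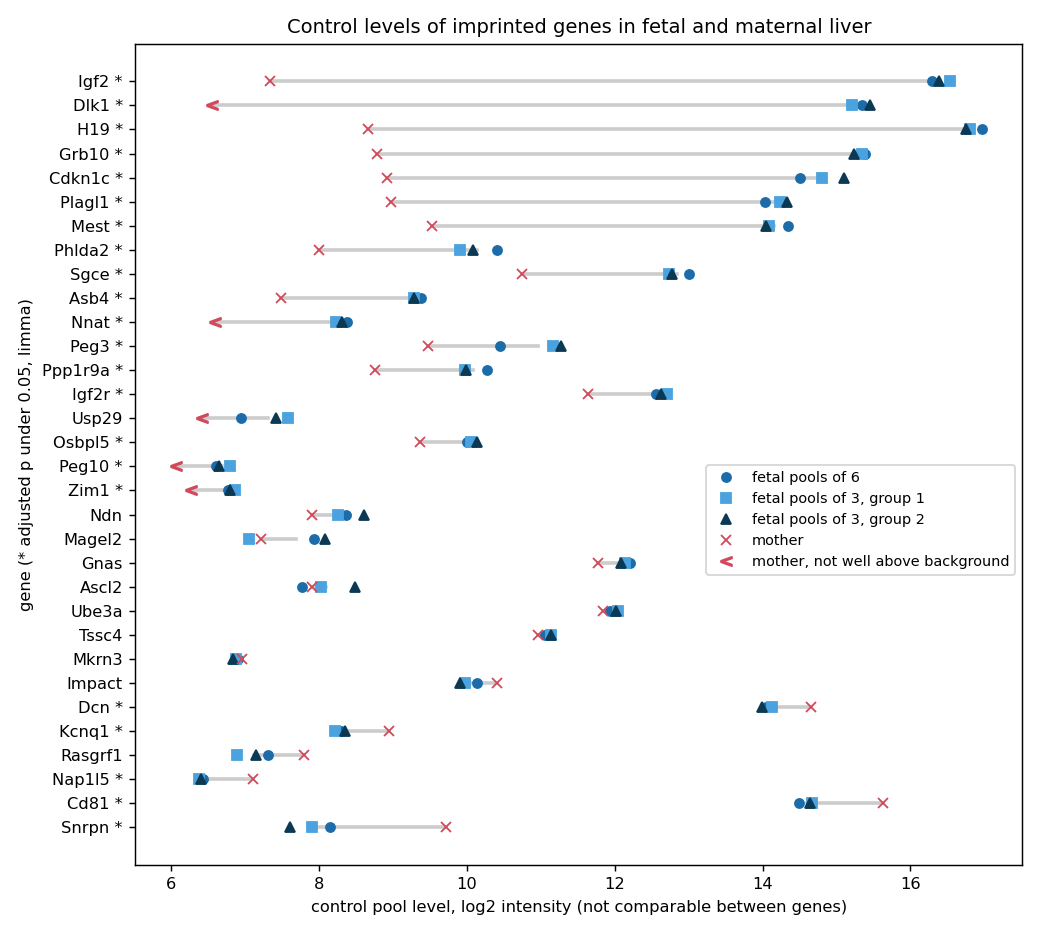
Control pool level as log2 intensity (horizontal axis) for each member with a level, ordered by the fetal minus maternal difference. Blue symbols are the 3 fetal pools and red marks the maternal pool, with an arrowhead where it was not well above background; on their brightest probes the 7 genes from Igf2 to Mest have gaps of over 4 log2 units.

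Genes outside the member list that belong to the same biology were read from 3 further lists. Of 47 tested other imprinted genes, 2 rose and 9 fell (23.4%, median -0.03), a share near that of all genes (25.6%). Whether these genes are imprinted in liver was likewise not examined. The protease inhibitor gene Tfpi2 fell by 0.80 ± 0.39 (adjusted p = 0.0207), the cholesterol synthesis gene Dhcr7 by 0.70 ± 0.22, the amine synthesis gene Ddc by 0.68 ± 0.07 (adjusted p = 0.00493) and the creatine synthesis gene Gatm by 0.65 ± 0.12. The 2 that rose, named after their values were seen, were Peg12 at 0.55 ± 0.16 (adjusted p = 0.0107) and the chemerin receptor gene Gpr1 at 0.27 ± 0.08 (adjusted p = 0.0227). Kcnq1ot1, the noncoding RNA that silences the Kcnq1 cluster on the paternal copy, was also picked after its values were seen, and it had ratios of -0.54, -0.42 and -0.37 (mean -0.44 ± 0.09, adjusted p = 0.00895), with -0.52 and -0.32 in the mothers. Meg3, Rian and Mirg, maternally expressed RNAs of the Dlk1 cluster that were picked for their place beside it, had -0.09 ± 0.31, -0.46 ± 0.59 and -0.10 ± 0.14, and none passed.

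Of 17 tested factors that maintain imprints, 1 rose and 3 fell (23.5%, against 25.6% of all genes). Ctcf, which binds the control region between H19 and Igf2, rose by 0.21 ± 0.03 (adjusted p = 0.0276). The chromatin protein gene Smchd1 fell by 0.36 ± 0.10 (adjusted p = 0.0137), Arid4a by 0.33 ± 0.06 and the histone methyltransferase gene Setdb1 by 0.22 ± 0.09. Named after their values were seen, the maintenance methyltransferase gene Dnmt1 had 0.16 ± 0.14 (adjusted p = 0.146), and the zinc finger gene Zfp57, which binds methylated imprints, 0.07 ± 0.07 (adjusted p = 0.357).

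Of 13 tested partners of Igf2, 3 rose and 2 fell (38.5%, against 25.6% of all genes). The genes of IGF-binding proteins Igfbp1 and Igfbp3 rose by 1.04 ± 0.10 (adjusted p = 0.00464) and 0.49 ± 0.24 (adjusted p = 0.0231), while Irs1, the adaptor below the insulin and IGF receptors, fell by 0.81 ± 0.23 and the insulin receptor gene Insr by 0.32 ± 0.10. Igfbp4, named after its values were seen along with Igf1r, was the third that rose, at 0.22 ± 0.08 (adjusted p = 0.0368). The receptor gene Igf1r had -0.23 ± 0.25 (adjusted p = 0.15).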

How the data were processed

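Liver RNA was amplified, labelled with Cy3 or Cy5 and hybridized to whole-genome arrays of 60-base probes, per the labels' protocols. The deposited scanner files hold spot intensity values with background medians, made by the authors with Agilent Feature Extraction 9.5.3.1 or 11.0.1.1, per the file headers. Slide 1 here means the files of version 9.5.3.1 (mothers and fetal pool pair of 6). Slide 2 means those of version 11.0.1.1 (groups 1 and 2). This split followed the file format, since only the slide 1 files held mean signals, and no slide number was read. The deposited log10 ratios equal Cy5 over Cy3 processed signals within 5e-08, were dye-turned to FR over control and served as an alternative. Titles give both arrays of an exchanged pair the same pool, while the descriptions number the exchanged array as another pool and name rat hippocampus, unlike the titles, source names and organism (mouse liver), which were followed.

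Intensities (means on slide 1, medians on slide 2) were corrected with normexp (offset 50) and loess in limma 3.58.1 (R 4.3.3), with control spots at weight 0. Population outliers were left out and non-uniform spots kept. Of the brightest spots, 84.9% and 87.3% were marked non-uniform on the 2 arrays of the fetal pool pair of 6. The maternal arrays had 78.8% and 80.7%, and those of slide 2 had 0% to 0.0461%. The probes read for 6 of the 8 called members were marked on 1 or more arrays. Leaving marked spots out therefore takes away most bright spots of the pool pair of 6. Exchanged arrays were averaged to 1 replicate. For the FR ratios and their difference, a probe had to be well above background for 1 diet on all arrays entering. For control levels, the control signal had to be well above background on all fetal arrays or on both maternal arrays. The brightest probe that passed stood for a gene. Tests used lmFit and eBayes with Benjamini-Hochberg adjustment over all genes. Levels were log2 single-channel values after Aquantile scaling, computed from the deposited intensities. Median raw signals were 70 to 284 in Cy3 and 122 to 310 in Cy5, over backgrounds of 46 to 68, and the number of arrays limits the precision. The procedure was tested on simulated data. Gene names were updated through RefSeq where a probe's accession or symbol matched (26918 by accession, 5082 by symbol and 817 by older symbol, with 8357 kept as on the array).

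The members and lists were chosen with earlier results of these data known. All members are named; of each further list, up to 4 genes past the threshold were named by size of change, with exceptions stated. Alternatives were another offset, no loess, scaling between arrays, the deposited ratios, median signals, leaving out non-uniform spots, no filter, the median over probes, the slide as a block, quantile levels, a 2-fold maternal threshold and leaving out each fetal pool pair.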

Additional observations from a re-analysis of the deposited data

Results flagged for a closer look

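The FR response differed between fetal and maternal liver for 3 members by a test of the difference itself. It was 1.05 for Mest, -1.05 for Peg3 and 0.58 for Tssc4 (fetal minus maternal log2 ratio), with 1 maternal pool pair. Each missed the threshold with the slide as a block and without the fetal pool pair of 6 (1.13, -1.14 and 0.59, adjusted p = 0.109, 0.132 and 0.159), a fit in which 0 genes passed in limma and 1621 were higher and 1580 lower at an unadjusted p under 0.05.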

How the results depend on the processing

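Of the single-member fetal FR values under alternatives, 319 kept their direction and side of the threshold, 26 lost the call, 1 gained it and 26 turned sign. Of the 8 calls (1 higher, 7 lower), the higher count was 0 without loess, and both counts were 0 with log ratios scaled between arrays, where no gene passed (3333 higher and 3906 lower at an unadjusted p under 0.05). With the slide as a block 4 members were lower, 1 of them paternally expressed. With the median over probes 2 maternally expressed members were lower, against 4. Leaving out each pool pair gave 0 to 2 members higher and 0 to 7 lower, with 0 to 1 higher and 0 to 3 lower among paternally expressed members, and 0 to 1 and 0 to 4 among maternally expressed ones. Over all genes, 2399 were higher and 3005 lower; without loess 714 and 2259, without non-uniform spots 1418 and 1794, with the slide as a block 949 and 1264, and without group 1 1252 and 1507. Of single calls, Asb4 was also lost without loess, with the slide as a block and without group 1 (adjusted p = 0.0713, 0.0909 and 0.0969), and Peg3 without group 1 (adjusted p = 0.0674).

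Values near 0 turned sign. Without loess, Nnat had -0.02, Impact -0.05, Zim1 0.02, Ascl2 -0.03, and Osbpl5, Tssc4 and Gnas -0.11. With scaled log ratios Ascl2 had -0.01, Dcn 0.02 and Osbpl5 -0.02, and with the slide as a block Ascl2 -0.01, Dcn 0.01 and Osbpl5 0.00. Magel2 had 0.02 in the authors' deposited log ratios. Gnas had 0.00 with median signals and with the median over probes, and -0.09 without non-uniform spots. Leaving out each pair gave -0.23 to 0.10 for Plagl1, -0.03 to 0.03 for Peg10 and Ascl2, -0.07 to 0.18 for Nnat, -0.01 to 0.12 for Snrpn, -0.09 to 0.01 for Magel2, -0.19 to 0.06 for Dcn, -0.02 to 0.04 for Osbpl5 and -0.09 to 0.12 for Gnas.

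For the fetal minus maternal response (2 members higher, 1 lower), 0 were higher without loess, with scaling, without non-uniform spots and with the slide as a block, and 1 with median signals. Lower counts were 2 with an offset of 10 and in the authors' deposited log ratios, and 0 with scaling, median signals, no non-uniform spots, no filter, the median over probes or the slide as a block. Leaving out a pair gave 0 to 2 of each. Cdkn1c passed with an offset of 10 (-1.52, adjusted p = 0.0462), without loess (-1.53, 0.0487), in the authors' deposited log ratios (-1.65, 0.025) and without group 2 (-1.22, 0.00926). The sign turned for H19 (0.14), Grb10 (0.05) and Dcn (0.02) with the slide as a block, Igf2r without loess (-0.01), Phlda2 with the median over probes (0.01), Asb4 in the authors' deposited log ratios (0.21) and Mkrn3 (-0.06 to 0.00 leaving out a pair). For control levels, 3 members were lower without non-uniform spots and 2 to 7 leaving out a pair, against 5. Ascl2 had -0.13 with the slide as a block and Ube3a -0.27 with the median over probes. In the mothers, 1 member was higher with an offset of 10, and 2 were higher and 2 lower in the authors' deposited log ratios. The cause of these changes was not tested. The main fit is itself paired, since each FR pool was compared with its control pool within an array; a further replicate block was not fitted because replicate numbers do not link pool pairs.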
